A study of Homo sapiens with 2 samples.

Results

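The regulators of proteasome recovery described here were 6 genes, NFE2L1, NFE2L2, DDI2, NGLY1, KEAP1 and BACH1, taken by their symbols from a table of 10987 genes, in which each was found on 1 row. Their levels were compared between 2 RNA sequencing libraries. One was labelled as THP1, a human monocytic leukaemia line, exposed to bortezomib (bort) for 24 h, and the other as THP1 left untreated. The line carries the MLL-AF9 fusion, per the study, in both conditions. No other agent is named for either, the dose is not given in the sources used here, and each condition had 1 library. All differences are therefore between a pair of libraries, with no replicate check, no error and no p-value.

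Bort blocks the proteasome, the complex that degrades ubiquitin-marked proteins. NFE2L1 encodes NRF1 (a different gene from the nuclear respiratory factor that carries the symbol NRF1), a transcription factor that is made in the membrane of the endoplasmic reticulum and is normally destroyed by the proteasome. NRF1 is pulled into the cytosol by p97 and stripped of its sugars by the enzyme NGLY1. When the proteasome is inhibited, NRF1 is cut by the protease DDI2, and it then switches on proteasome genes. NFE2L2 encodes NRF2, a relative that responds to oxidants and that KEAP1, the substrate adaptor of a CUL3 ubiquitin ligase, holds at a low level. NRF1 and NRF2 bind the antioxidant response element together with small MAF proteins, and BACH1 is a haem-binding repressor that occupies the same element. Much of this control acts on proteins, which RNA levels do not show.

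The authors deposited FPKM values, in which fragments are divided by transcript length and by the size of the library, so levels of different genes can be set side by side per length. The header over the columns gives this unit, although the table was deposited under a name that says raw counts, and the values are not whole numbers. Every gene of the table reached at least 0.501 FPKM in 1 library. The values summed to 210026 in the untreated and 221529 in the bort-treated library, and the number of reads behind them is unknown. Against the labelled cell type, 17 of 18 erythroid marker genes were listed, with summed levels of 5223 FPKM in the untreated and 4504 FPKM in the bort-treated library. GATA1, the main erythroid transcription factor, was at 161.3 and 48.7 FPKM. Only 7 of 20 monocytic and myeloid markers were listed, with summed levels of 45.0 and 105.4 FPKM, and CD14, CSF1R and MPO were among the 13 that were not. The libraries are named here by their labels, and the part of cell type in the differences below was not tested.

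Differences were taken as log2(FPKM + 1) in the bort-treated minus the untreated library, a scale that understates the change of low genes. Of the 6 genes, BACH1 was higher by 2-fold or more and none was lower by 2-fold or more. Among all genes of the table, 888 (8.08%) passed 2-fold upwards and 1125 (10.2%) downwards. The split of all genes depended on scaling, and scaling to the totals that leave out the 20 highest genes gave 1100 higher and 931 lower. The median difference of the 6 genes was 0.20 on the log2 scale, with 4 above and 2 below 0. That of all genes was 0.0049, with 5526 above and 5461 below 0.

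NFE2L1, which GENCODE 29 locates on chromosome 17 (identifier ENSG00000082641.15_3), measured 18.3 FPKM in the untreated and 23.2 FPKM in the bort-treated library. This source of NRF1 was thus higher by 26.8%, a log2 difference of 0.33, and 3604 of the 10987 genes had a larger one. Its level lay above that of 78.5% of genes in the untreated library and above that of 85.6% in the bort-treated library. In these bulk libraries, a change in the share of cells with a transcript and a change in its level per cell cannot be told apart.

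NGLY1 and DDI2, the enzymes that act on the NRF1 protein after it leaves the membrane, differed in opposite directions. NGLY1 (ENSG00000151092.16_2, chromosome 3) was at 7.89 FPKM in the untreated and 11.2 FPKM in the bort-treated library, higher by 41.6%, with a log2 difference of 0.45. DDI2 (ENSG00000197312.11_3, chromosome 1) was at 8.92 and 5.89 FPKM, a difference of -34.0% and of -0.53 on the log2 scale. The glycanase NGLY1 was therefore at 0.884 times the level of the protease in the untreated library and at 1.90 times in the bort-treated library. This ratio is formed within a library, so it does not depend on how the libraries are scaled. The trend with GC content described below does not cancel in it. With that trend removed, the log2 difference was -0.092 for NGLY1 and -0.77 for DDI2. Relative to NFE2L1, DDI2 stood at 0.487 in the untreated and 0.254 in the bort-treated library, and NGLY1 at 0.431 and 0.482.

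NFE2L2, the gene for NRF2 (ENSG00000116044.15_3, chromosome 2), was at 5.48 FPKM in the untreated and 5.83 FPKM in the bort-treated library. Its log2 difference of 0.076 was the smallest of the 6, and its level was near the middle of the table in both libraries, above 48.5% and 49.1% of genes. NFE2L1 was 3.34 times as abundant per length as NFE2L2 in the untreated library and 3.98 times in the bort-treated library.

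KEAP1 (ENSG00000079999.13_3, chromosome 19), which presents NRF2 for ubiquitination, was the most abundant of the 6 in the untreated library at 29.7 FPKM. In the bort-treated library it was at 17.5 FPKM, a difference of -41.0% and of -0.73 on the log2 scale, and 1849 genes had a more negative one. The level of KEAP1 was 5.42 times that of NFE2L2 in the untreated library and 3.01 times in the bort-treated library. Its partner CUL3, the ligase scaffold, was at 4.76 and 3.86 FPKM, so that KEAP1 stood at 6.24 and 4.54 times CUL3.

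BACH1 (ENSG00000156273.15_4, chromosome 21) was the least abundant of the 6 in the untreated library, at 3.90 FPKM, and the fourth in the bort-treated library, at 9.67 FPKM. It was 2.48-fold higher by plain FPKM, with a log2 difference of 1.12 on FPKM + 1, and 665 genes (6.05%) had a larger one. The level of this repressor was 0.713 times that of NFE2L2 in the untreated library and 1.66 times in the bort-treated library. KEAP1 was at 7.61 times the level of BACH1 in the untreated library and at 1.81 times in the other.

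The order of the 6 levels accordingly differed between the libraries. In the untreated library it ran from KEAP1 through NFE2L1, DDI2, NGLY1 and NFE2L2 to BACH1. In the bort-treated library it ran from NFE2L1 through KEAP1, NGLY1, BACH1 and DDI2 to NFE2L2, with 5.89 FPKM for DDI2 and 5.83 FPKM for NFE2L2. With no replicate, no spread was available to say which neighbours in either order differ.

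The differences of these genes have to be read beside the GC content of their transcripts, since differences across the table followed it, with a Spearman correlation of -0.48 over 10907 genes that share the same libraries. GC content was that of the longest GENCODE 29 transcript of a gene, and genes were placed in 10 bins of equal number by it. NGLY1 (36.2% GC) and BACH1 (38.6%) lay in the bins with the lowest and the next lowest GC content, which had median log2 differences of 0.56 and 0.40. In the bin of BACH1, 147 of 1091 genes were higher by 2-fold or more. KEAP1 (60.3% GC) lay in a bin with a median of -0.40. With the trend removed by a lowess fit, BACH1 was at 0.67, under 2-fold, NGLY1 at -0.092 and KEAP1 at -0.29. DDI2 and NFE2L1 went the other way. DDI2 (42.6% GC) was lower within a bin whose median was 0.30, and its difference became -0.77. NFE2L1 (55.2% GC) was higher within a bin whose median was -0.21, and its difference became 0.61. NFE2L2 was at -0.024 after removal. The ratios between genes given here were not corrected for this trend.

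Other settings moved these values less. Over 8 alternatives of pseudocount, scaling and low filter, BACH1 was higher by 2-fold or more in each, and each of the other genes kept its sign. The log2 difference of KEAP1 was at its lowest, -0.80, with the libraries scaled to the same total.

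Exons of some of these genes overlap those of others in GENCODE 29. RSC1A1 lies within DDI2 on the same strand and shares 1854 exonic bases, 15.3% of the DDI2 exons, and AC019080.1 shares 17.6% of the exonic bases of NFE2L2 on its strand. LINC00189 shares 3.91% with BACH1. None of these 3 genes has a row in the table used here, so their fragments could have been assigned to DDI2, NFE2L2 and BACH1. OXSM overlaps 6.44% of the NGLY1 exons on the opposite strand and was itself at 3.52 and 5.28 FPKM. No exon of another gene overlaps KEAP1.

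For each of the 6 genes the 3 nearest genes by Euclidean distance over log2(FPKM + 1) were looked up, a measure that rests on 2 libraries and carries no statement on function. THOC7 and BUB1B were among the nearest to NFE2L1, the closest at a distance of 0.0082. ZNF398, GABPA and DIEXF were nearest to NFE2L2, and CHRAC1, FAM69B and RNF25 to DDI2. APOO, KIAA1524 and KBTBD2 were nearest to NGLY1, and HIST1H2BD, KDM5C and RBM19 to KEAP1. ZBTB33, WBP1 and S100A13 were nearest to BACH1, the first at 3.94 and 9.35 FPKM. Between 11 (NFE2L1) and 35 (NFE2L2) genes lay within a distance of 0.1 of each.

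Promoter sequences from RefSeq (GRCh38.p14, 250 bases before to 50 bases after a start) were found for all 6 genes, in 12 windows. They were searched on both strands for the core of the antioxidant response element, TGACNNNGC, to which NRF1, NRF2 and BACH1 bind as dimers with small MAF proteins. Of all 35116 promoter windows 13.3% held a match, and of the 12 windows 1 did, a KEAP1 window with 2 matches. The AP-1 site core, TGAGTCA or TGACTCA, which can overlap the element, was found in 4.95% of all windows and in 1 of the 12, a BACH1 window. These stretches are shown because they hold all matches to either motif in the 12 windows, with the matched bases in capitals and the sequence on the strand of the gene. A match is a description of letters and not a site.
KEAP1, chr19:10502808-10502834, minus strand, 54 bases before the start: cttttattgTGACACGGCgggcgcccg
KEAP1, chr19:10502785-10502811, minus strand, 31 bases before the start, element on the opposite strand: cccggctctGCTTAGTCAtggtgacct
BACH1, chr21:29298865-29298891, plus strand, 48 bases before the start, AP-1 site core: cggaaggagTGAGTCAcctgaccgctg

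The factors that pair or compete with NRF1, NRF2 and BACH1 were also set side by side in the libraries. All 6 of the other cap'n'collar factors and small MAF genes were listed, of which 5 were above and 1 below 0. BACH2, the close relative of BACH1, was at 0.660 FPKM in the untreated and 4.56 FPKM in the bort-treated library, a log2 difference of 1.75. NFE2, the erythroid member of the family, was at 62.7 and 19.7 FPKM, a difference of -1.62. It is also among the erythroid markers, of which 6 of 17 were lower by 2-fold or more, beside 10.2% of all genes. Another 6 of the 17 were above 0, and the marker median of -0.86 became -0.16 with the GC trend removed. NFE2L3 was nearly level, at 2.04 and 2.06 FPKM, a log2 difference of 0.0071. Of the small MAF partners, MAFG was at 25.4 and 36.6 FPKM, MAFK at 5.74 and 7.77 FPKM and MAFF at 0.476 and 1.22 FPKM. The most abundant of these, MAFG, was at 6.49 times the level of BACH1 in the untreated library and 3.79 times in the bort-treated library.

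Of the genes that draw NRF1 out of the membrane and present it for processing, 13 of 14 were listed, with 10 above and 3 below 0 and a median of 0.44. In this list 3 genes (23.1%) passed 2-fold upwards and 1 (7.69%) downwards, beside 8.08% and 10.2% of all genes. UFD1, which with NPLOC4 brings substrates to p97, was at 32.9 FPKM in the untreated and 102.3 FPKM in the bort-treated library, a log2 difference of 1.61. SEL1L, the partner of the ligase SYVN1, was at 2.25 and 7.31 FPKM, and DERL2, a component of the same degradation route, at 2.31 and 5.94 FPKM. The ubiquitin-conjugating enzyme UBE2G2 was at 28.1 and 17.6 FPKM, and AUP1, which recruits it, at 89.5 and 71.9 FPKM. VCP, the gene for p97 itself, was at 102.4 and 121.8 FPKM.

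All 19 genes listed for the turnover or modification of NRF1, NRF2 and BACH1 were in the table, 12 above and 7 below 0, with a median of 0.21. SQSTM1 alone (5.26%) was higher by 2-fold or more in this list and none was lower, beside 8.08% and 10.2% of all genes. SQSTM1 encodes p62, an autophagy receptor that binds KEAP1, and it was at 22.3 FPKM in the untreated and 165.8 FPKM in the bort-treated library, a log2 difference of 2.84. Its level was 0.751 times that of KEAP1 in the untreated library and 9.46 times in the bort-treated library, and removal of the GC trend gave a difference of 3.21. BTRC and FBXW7, substrate receptors of ubiquitin ligases, were at 1.80 and 4.59 FPKM and at 0.828 and 2.23 FPKM. WDR23, listed as DCAF11, was at 7.58 and 4.14 FPKM, AMER1 at 2.11 and 0.968 FPKM, and HCFC1, a cofactor that binds NRF1, at 28.5 and 18.3 FPKM. With the GC trend removed, the log2 difference of HCFC1 went from -0.61 to -0.12. Those of WDR23 and AMER1 were then -0.49 and -0.53, and those of BTRC and FBXW7 0.88 and 0.74.

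Known target genes of the 2 NRF factors were described in the same way. Of 30 listed enzymes and transporters known to be under NRF2 control, 27 had a row, with 18 above and 9 below 0 and a median of 0.74. Of these 27 genes 8 (29.6%) were higher and 1 (3.70%) was lower by 2-fold or more, beside 8.08% and 10.2% of all genes. PIR, an iron-binding nuclear protein, was at 1.63 FPKM in the untreated and 19.1 FPKM in the bort-treated library, a log2 difference of 2.93. OSGIN1 was at 3.46 and 27.2 FPKM. SLC7A11, the cystine transporter, was at 0.656 and 7.26 FPKM. GCLC and GCLM, the subunits of the enzyme that starts glutathione synthesis, were at 1.76 and 5.96 FPKM and at 5.99 and 25.3 FPKM. NQO1, a quinone reductase, was at 15.8 and 46.2 FPKM. The carbonyl reductase CBR1 was the gene lower by 2-fold or more, at 22.4 and 5.76 FPKM. The pentose phosphate enzymes TALDO1 and PGD were at 158.0 and 88.7 FPKM and at 131.8 and 97.2 FPKM. These differences stood beside a log2 difference of 0.076 for NFE2L2 RNA.

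**Figure D1:**
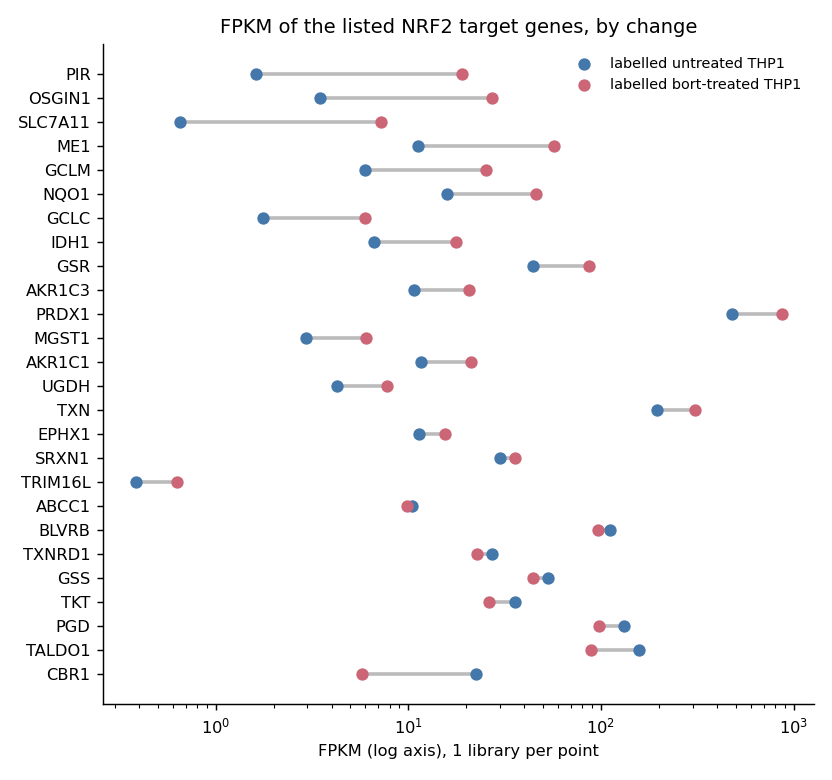
FPKM on a log axis of 26 of the 27 NRF2 target genes in the table, ordered by their log2 difference of FPKM + 1, with 1 point per library (blue, labelled untreated; red, labelled bort-treated). The gene not drawn was below 0. For 18 of the genes drawn the red point lies to the right of the blue one, led by PIR, OSGIN1 and SLC7A11. CBR1 has the widest gap in the other direction.

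Of 12 genes that BACH1 is known to repress or that share its haem and iron elements, 11 were listed, 6 of which are also in the NRF2 list. They had a median of 1.16, and 6 (54.5%) passed 2-fold upwards and 1 (9.09%) downwards, where 8.08% and 10.2% of all genes did. BACH1 RNA itself was higher as well. FTL and FTH1, the ferritin chains, were at 2191 and 7304 FPKM and at 297.2 and 663.8 FPKM. SLC7A11, ME1 and GCLM had the largest differences, ME1 (malic enzyme) going from 11.3 FPKM in the untreated to 56.7 FPKM in the bort-treated library. SLC40A1, the iron exporter, was at 5.70 and 1.69 FPKM, a log2 difference of -1.32. TXNRD1 was at 27.3 and 22.8 FPKM and BLVRB at 111.3 and 96.7 FPKM. HMOX1 was not analysed here.

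The proteasome genes are the known targets of NRF1. All 33 subunits of the 20S core and 19S cap were listed, 31 above and 2 below 0, and 4 passed 2-fold upwards and 0 downwards, beside 8.08% and 10.2% of all genes, so the upward share was near that of the table. The median log2 difference was 0.49 for the 14 core subunits and 0.55 for the 19 cap subunits. The largest in the core were those of PSMA1, PSMA4 (15.4 and 33.8 FPKM) and PSMB7 (130.4 and 253.9 FPKM). In the cap they were SEM1 (6.37 and 15.4 FPKM), PSMD14 (29.9 and 60.8 FPKM) and PSMC1 (27.04 and 54.1 FPKM). PSMC3, at 114.5 and 113.3 FPKM, and PSMA7 were the subunits below 0. With the GC trend removed, SEM1 was at 0.44, PSMD14 at 0.29 and PSMC1 at 0.997 on the log2 scale. PSMD8 then had the largest cap difference, at 1.13. The medians were then 0.53 for the core and 0.41 for the cap, and PSMA3, PSMA5, PSMA6, PSMA7 and PSMC2 were below 0. Without that removal, the median among 12 assembly factors and activators was 0.042, with 6 on either side of 0. PSME3, a nuclear activator, was at 42.1 FPKM in the untreated and 7.78 FPKM in the bort-treated library, a log2 difference of -2.30. The assembly chaperones PSMG3 and PSMG4 were at 43.3 and 15.8 FPKM and at 4.47 and 2.33 FPKM. PSME4, PSMD10 and POMP were at 14.2 and 26.8 FPKM, 6.68 and 12.8 FPKM, and 114.5 and 173.6 FPKM. With the GC trend removed, the log2 difference was 0.57 for PSME4, 0.55 for PSMD10 and -0.014 for POMP. It was then -2.26 for PSME3, -1.01 for PSMG3 and -0.53 for PSMG4.

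The element was also counted in the promoters of these target genes. It was found in 10 of 29 windows of the NRF2 target genes (34.5%), in 2 of 14 windows of the core and 8 of 23 windows of the cap subunits, beside 13.3% of all windows. The genes that BACH1 represses, some of which are also NRF2 targets, had it in 5 of 10 windows. Other lists held it as well, in 7 of 12 windows for proteasome assembly and activators and 4 of 13 for NRF1 retrotranslocation and processing. The erythroid markers had it in 3 of 11 windows and the turnover genes in 4 of 25. Windows were available for 21 of the 30 NRF2 target genes. Of the 20 of these with an FPKM value, the 9 with a match had a median log2 difference of 0.83, and the 11 without had one of 0.74. Among the BACH1-repressed genes with a window, the 4 with a match had a median of 1.05, and the 5 without had one of 0.81. Matches thus stood in genes with a large difference and in genes without one. In the following stretches, shown as examples of both, the matched bases are in capitals.
GCLM, chr1:93909447-93909473, minus strand, element on the opposite strand: acgatttctGCTTAGTCAttgtcttcc
ME1, chr6:83431171-83431197, minus strand: ctcctgccaTGACTCAGCgcttctcgc
PIR, chrX:15493290-15493316, minus strand, element on the opposite strand: ccgcgaagcGCTGAGTCAcggtgaggc
PSMA4, chr15:78540651-78540677, plus strand: tgggcacgaTGACTCTGCaccgcctcc
TXNRD1, chr12:104215671-104215697, plus strand: cacgggctaTGACTTCGCtgttgtcac
CBR1, with a match as well, had the most negative difference of the list, -1.79, and NQO1, with a difference of 1.49, had no match within its window.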

How the data were processed

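The labels describe RNA from 2 samples, and the study's methods a poly-A library sequenced on an Illumina HiSeq. Per those methods the authors aligned reads by HISAT2 2.0.4 and reconstructed transcripts by StringTie 1.2.3, and they deposited FPKM values per gene (GRCh37 per the labels). No read counts were used, so no counting error is given. The members and gene lists were chosen with earlier results of these data known.

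Log2 differences of FPKM + 1 were computed with numpy 2.4.6 and pandas 2.3.3, and 2-fold was the threshold, as in the study. With 1 library per group no test across genes was made. GC content was that of the longest GENCODE 29 transcript, matched by identifier for 99.3% of genes, and its trend was removed with lowess (span 0.3, statsmodels 0.14.6). Since the builds differ, no gene coordinates are given. Named genes were the 6 genes, the 3 largest rises and falls of each list, all CNC and small MAF factors and the nearest genes. Others (VCP, CUL3, GCLC, NQO1, FTL and FTH1, and the promoter examples) were chosen after their values were seen. A few named genes are not reported here. Scripts were tested on simulated data.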

Additional observations from a re-analysis of the deposited data

How the results depend on the processing

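No paired analysis was possible because there was a single library on either side, and none could be left out. No threshold from replicate spread exists, so a value counts as moved when its sign or its side of 2-fold changed or it shifted by over 1.5 times. Of 188 alternative values, 166 stayed within these limits, 22 moved and 0 of those past 2-fold changed sign.

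With the GC trend removed, the log2 difference was 0.67 for BACH1, -0.024 for NFE2L2 and -0.092 for NGLY1, and 0 of the 6 genes were higher by 2-fold, while 681 of all genes were lower. The medians were then -0.086 for proteasome assembly and activators, -0.077 for turnover genes, -0.16 for erythroid and 1.45 for monocytic markers. At 1.5-fold, 2282 genes were higher and 2378 lower, with 1 of the 6, KEAP1, lower. At 4-fold the counts were 92 and 135, with 0 of the 6 higher. A pseudocount of 0.1 FPKM gave 1576 genes that were higher and a median of 1.49 for the monocytic markers. Without a pseudocount 1654 genes were higher and 1708 lower, and that median was 1.77. Scaling to the same total gave -0.031 for proteasome assembly and activators, and a minimum of 1 FPKM in both libraries gave 0.98 for genes that BACH1 represses. The cause was not tested. Depth is unknown, so the counting error of low genes, MAFF and SLC7A11 among them, cannot be given.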
